A study of Oryza sativa Indica Group with 6 samples.

Results

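Expansins are small secreted proteins that let the walls of growing plant cells slip and extend without cutting the wall polymers. Alpha-expansins (*EXPA* genes) are found in all land plants, while the beta class (*EXPB* genes) is unusually large in grasses, whose walls are rich in mixed-linkage glucan and arabinoxylan. The expansin-like *EXLA* and *EXLB* genes share the fold of the family, but no wall-loosening activity has been assigned to their proteins. Auxin makes cells acidify their walls, and expansins act best in acid walls, which makes the family a natural place to look in rice that overexpresses an auxin-binding protein.

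The members were the genes of the NCBI rice gene table that carry *EXPA*, *EXPB*, *EXLA* or *EXLB* plus a number as symbol or synonym, with or without the prefix Os. The table held 49 such genes, and 38 of them had a transcript cluster of their own on the array, among 14662 genes so represented and 41770 clusters in all. These were 22 of 29 *EXPA* genes, 12 of 15 *EXPB* genes, 3 of 4 *EXLA* genes and the single *EXLB* gene. *EXPA9*, *EXPA15*, *EXPA17*, *EXPA19*, *EXPA20*, *EXPA25*, *EXPA29*, *EXPB11*, *EXPB15*, *EXPB17* and *EXLA4* were not analysed here, *EXPB15* because its cluster is paired with *EXPB18* as well. Each of the 38 genes had 1 cluster, no member shared its 6 signals with another cluster, and no filter on dim signals was applied.

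Both genotypes were seedlings of the *indica* rice cultivar MR219, grown for 10 days on MS medium (a diluted form of it in the sample records) and taken whole. The control was the wild type, and the other group was transgenic T3 rice, made with *Agrobacterium*, that overexpresses *Abp57*, the gene of auxin-binding protein 57. Each genotype had 3 arrays, each array a biological replicate pooled from at least 3 seedlings. The promoter of the transgene and the number of transformed lines behind the arrays are not given in the sources used here, and the signal of *Abp57* itself was not analysed here. Since RNA of root and shoot was mixed, fewer cells that express a gene and less RNA per cell cannot be told apart.

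Values are log2 signals on the scale of RMA, on which 1 unit is a doubling, and signals of a gene are given for replicates 1, 2 and 3 in that order. Over the 6 arrays the median signal was 5.21 to 5.30, and the members had signals from 2.98 to 10.05. Of the 38 members, 36 lay at or above the 25th percentile of mean signal over all clusters, and *EXPA31* and *EXPB10* lay below it. Signals of different genes come from different probes and were not compared with each other. Close copies within the family can hybridise to each other's probes, which could not be checked without the probe sequences.

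No expansin passed the thresholds used for these arrays. At a fold over 2 with an unadjusted p under 0.05 by limma, 0 of 38 members were higher in overexpressing rice, where 0.335% of all clusters were, and 0 were lower, against 0.172%. At an adjusted p under 0.05, 0 members passed against 0.0144% of all clusters. At an unadjusted p under 0.05 alone, 3 members were lower, or 7.89% of them against 3.62% of all clusters, and 0 were higher against 3.27%. Over 1 cluster of every gene these shares were 3.84% lower and 4.7% higher. By the methods' own test, which does not moderate the variance across clusters, 2 members were lower, or 5.26% against 3.67% of all clusters. The smallest adjusted p of a member was 0.67 by limma. For 30 members the 95% interval of the difference lay wholly inside a fold of 2 in both directions, and for 8 it reached beyond.

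**Figure D1:**
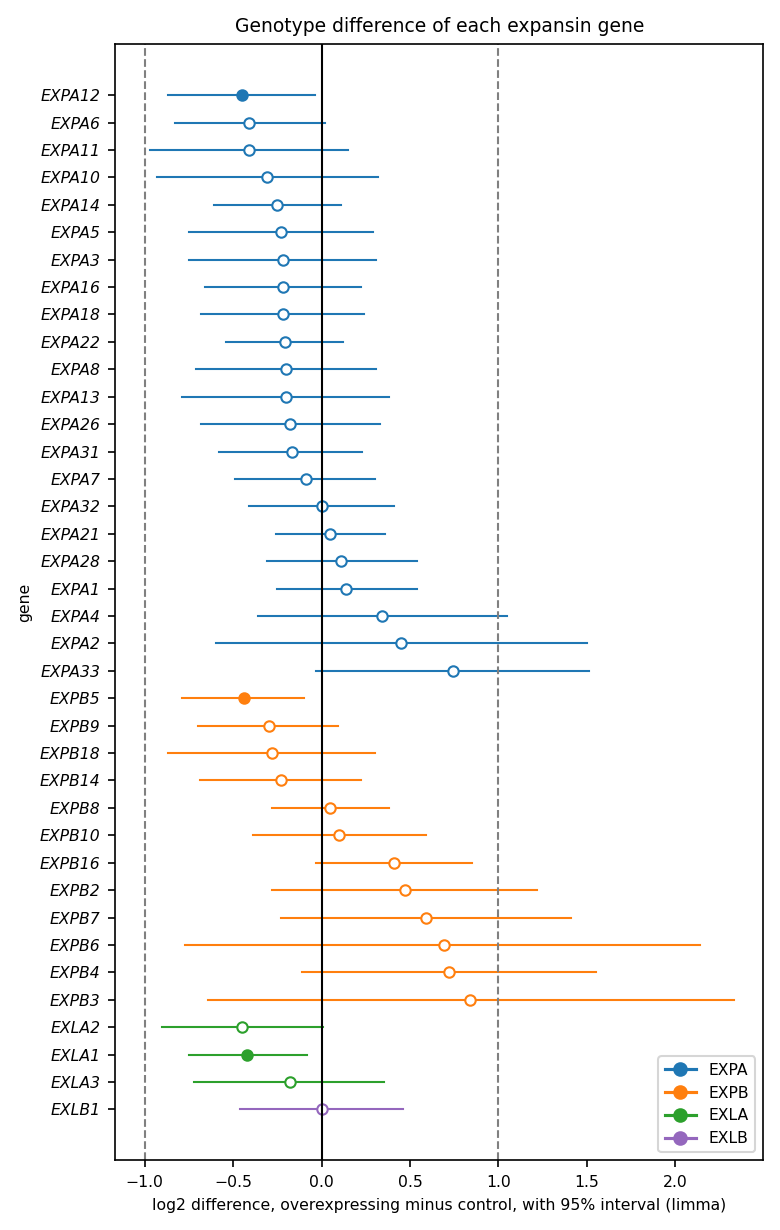
Log2 difference of overexpressing minus control seedlings for the 38 expansin genes (horizontal axis), with the 95% interval from limma, ordered within each family and coloured by family; filled points are the 3 genes with an unadjusted p under 0.05, open points the others, and dashed lines mark a fold of 2. The widest intervals belong to *EXPB3* and *EXPB6*, and no point lies beyond a dashed line.

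The 3 genes below the unadjusted threshold came from 3 different families and had small differences. *EXPB5*, a beta-expansin known for its use in root hairs, had signals of 4.88, 4.91 and 4.78 across the controls, compared with 4.19, 4.47 and 4.59 across the overexpressing arrays. All 3 overexpressing signals lay below all 3 controls, the log2 difference was -0.44 (standard error 0.15), and limma gave an adjusted p of 0.67. Its difference was -0.33 without overexpressing replicate 1, and it did not pass the unadjusted p then, nor without control replicate 1 or 2.

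*EXLA1*, an expansin-like gene, had 8.64, 8.61 and 8.42 in the controls and 8.12, 8.00 and 8.30 in overexpressing rice. The genotypes did not overlap, and the log2 difference was -0.42 (standard error 0.15, adjusted p = 0.68 by limma). It lost the unadjusted p without control replicate 1, control replicate 2 or overexpressing replicate 2.

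*EXPA12*, an alpha-expansin on chromosome 3, had 7.11, 7.28 and 6.96 in the controls and 6.37, 6.94 and 6.68 in overexpressing rice. Its log2 difference was -0.45 (standard error 0.18, adjusted p = 0.71 by limma), and the genotypes did not overlap, but the gap between 6.94 and 6.96 was far smaller than the spread within either. It did not pass the unadjusted p by the methods' own test, nor with control 1, control 2, overexpressing replicate 1 or overexpressing replicate 3 left out.

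In 6 members all overexpressing signals lay below all controls, or 15.8% against 7.53% of all clusters, and in 1 member they lay above, or 2.63% against 5.51%. Over 1 cluster of every gene these shares were 6.68% below and 7.52% above. The lower members were *EXLA1*, *EXLA2*, *EXPA12*, *EXPA14*, *EXPA22* and *EXPB5*. The higher one was *EXPB16*, with 5.86, 5.86 and 5.36 in the controls and 6.28, 6.14 and 5.88 in overexpressing rice, a log2 difference of 0.41 (standard error 0.19). *EXPA14*, *EXPA22* and *EXPB16* were named after their values were seen. With quantile normalization repeated, 3 members lay wholly below the controls, or 7.89% against 6.82% of all clusters, and with cyclic loess 3 did, against 6.08%. With fewer arrays non-overlap is easier for every cluster, and without control replicate 3 it held for 13 members, or 34.2% against 16.7%.

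The alpha class leaned lower and the beta class higher, and both by less than a fold of 2. Of 22 *EXPA* genes, 16 had a log2 difference below 0, with a median of -0.20 and a range from -0.45 to 0.74. Of 12 *EXPB* genes, 4 were below 0, with a median of 0.25 and a range from -0.44 to 0.84. Over all clusters 55.7% were below 0 with a median of -0.03, and over 1 cluster of every gene 48.8% with a median of 0.01. The *EXPA* median minus the *EXPB* median was -0.46. The size of this separation depended on the average taken and on single arrays. With an array left out it stayed below 0, from -0.48 without control replicate 1 to -0.22 without control replicate 3. With a biweight average, which gives an outlying array little or no weight, the medians were -0.10 for *EXPA* and -0.11 for *EXPB*, and their difference was 0.01. In *EXPB3*, for instance, it gave control replicate 3 no weight, so it is not separate from leaving out that array. Without control replicate 3 the *EXPB* median was 0.02 and the *EXPA* median -0.19. Without overexpressing replicate 1 the *EXPA* median was -0.04, but the *EXPB* median was 0.29 and the class difference -0.33.

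**Figure D2:**
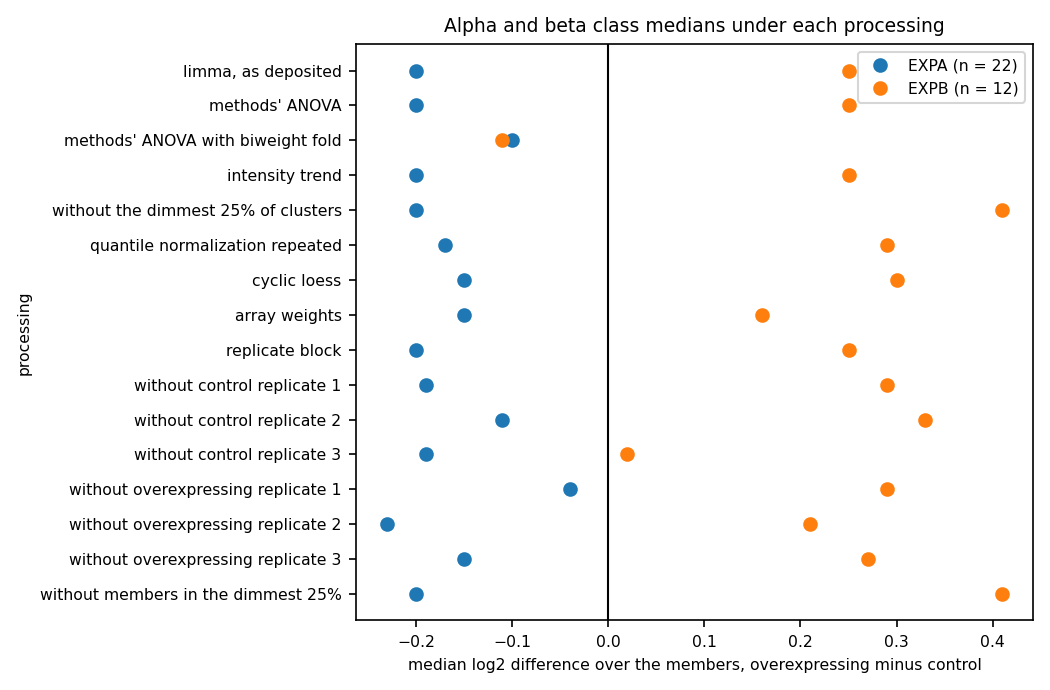
Median log2 difference of overexpressing minus control rice (horizontal axis) over the *EXPA* genes (blue) and the *EXPB* genes (orange) under each processing or with each array left out (vertical axis). As deposited, the classes lie at -0.20 and 0.25, they meet at -0.10 and -0.11 with the biweight fold, and *EXPB* lies at 0.02 without control replicate 3.

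Array by array, the classes parted on control replicate 3. This array had the lowest weight over all clusters in limma's estimate of array quality, 0.474, followed by overexpressing replicate 1 with 0.642, while the other 4 had 1.18 to 1.58. Its median signal of 5.23 lay within the range of the others, and the part of array quality in the class difference was not tested. The class level was taken as the median over members of the log2 signal minus the gene's mean of the 6 arrays. *EXPA* had 0.07, 0.26 and -0.09 in the controls, again in replicate order, and -0.12, 0.12 and -0.09 in overexpressing rice. *EXPB* had 0.19, 0.25 and -0.48 in the controls and 0.04, 0.07 and 0.06 in overexpressing rice. The level of *EXPA* minus that of *EXPB* was 0.40 in control replicate 3, whereas the other 5 arrays had values from -0.16 to 0.05. Control replicate 3 was the lowest array for 16 of 38 members, or 42.1% against 18.7% of all clusters, namely for 7 *EXPA*, 8 *EXPB* and 1 *EXLA* gene. Overexpressing replicate 1 was the lowest for 12 members, or 31.6% against 25.9%, of which 8 were *EXPA*. Control replicate 2 was the highest array for 14 members, or 36.8% against 20.8%, of which 10 were *EXPA*. Over 1 cluster of every gene, control replicate 3 was lowest for 22.4%, overexpressing replicate 1 lowest for 20.1% and control replicate 2 highest for 15.7%.

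**Figure D3:**
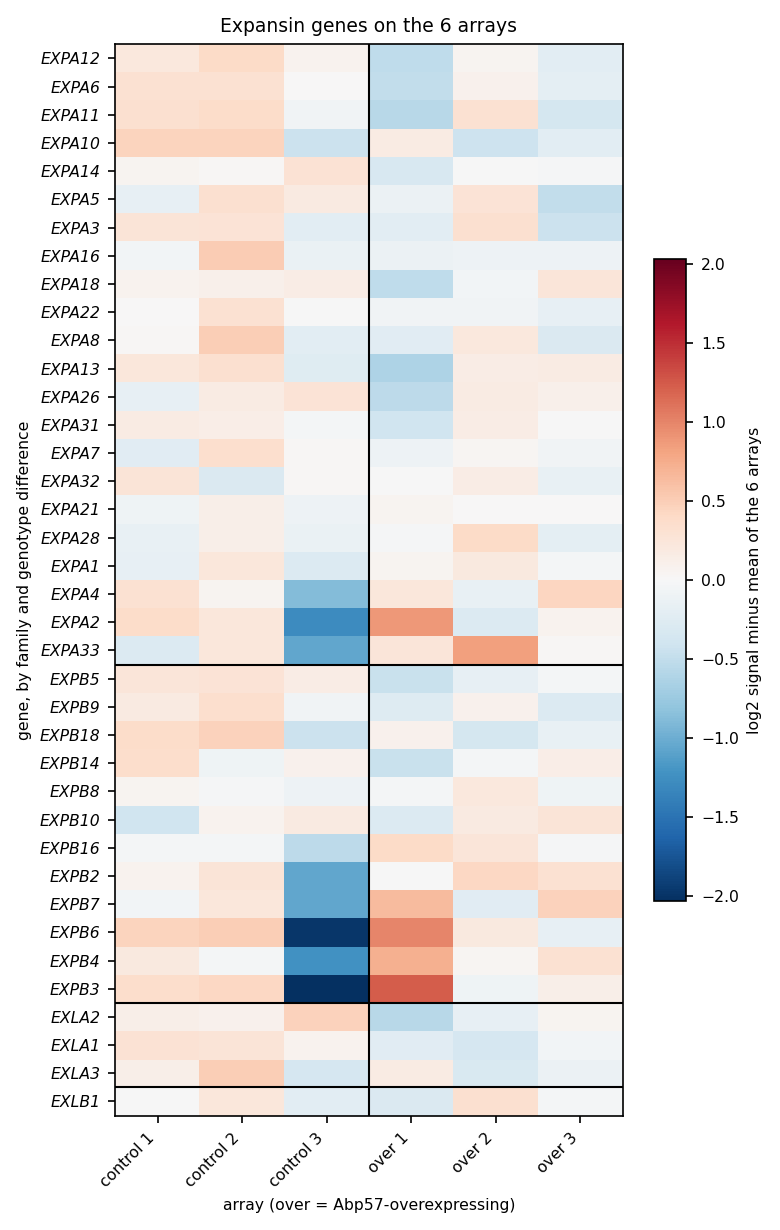
Heat map of the 38 expansin genes (rows, ordered by genotype difference within each family) on the 6 arrays (columns, controls left of the line), where colour is the log2 signal minus the gene's mean over the 6 arrays. The lowest cells (dark blue) are *EXPB3* and *EXPB6* in control replicate 3, and both genes are highest (red) in overexpressing replicate 1.

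In 6 members control replicate 3 lay more than 1 log2 unit below both other controls. That was 15.8% of members, against 2.26% of all clusters and 3.85% over 1 cluster of every gene. The members were 5 of 12 *EXPB* genes, *EXPB2*, *EXPB3*, *EXPB4*, *EXPB6* and *EXPB7*, and 1 of 22 *EXPA* genes, *EXPA2*. This limit was set after the values were seen and is given as a description. Just inside it was *EXPB7*, 1.01 below the lower of the other controls, and just outside were *EXPA4*, *EXPA10*, *EXPB18* and *EXPA33*, 0.92, 0.89, 0.81 and 0.78 below. Over these 6 genes, chosen for their control signals, the median level was 0.28, 0.25 and -1.25 across the controls, compared with 0.80, -0.02 and 0.22 across the overexpressing arrays. Without them, the median log2 difference was -0.23 for the remaining 7 *EXPB* genes and -0.20 for the remaining 21 *EXPA* genes. Since a low control raises a gene's difference, leaving out genes by that trait itself lowers the *EXPB* median.

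*EXPB6*, *EXPB2*, *EXPB3* and *EXPB4* follow each other on chromosome 10 with 0 annotated genes between them in the NCBI assembly of *japonica* rice. *EXPB3*, *EXPB4* and *EXPB6* are known from the elongating internodes of deepwater rice, where gibberellin induces them. *EXPB3* had 9.18, 9.24 and 6.79 across the controls, compared with 10.05, 8.74 and 8.95 across the overexpressing arrays. Its control mean was 8.40 ± 1.40 (SD, n = 3) against 9.24 ± 0.70 (SD, n = 3). The log2 difference of 0.84 had the highest value of any member, but its 95% interval ran from -0.64 to 2.33, and limma gave an adjusted p of 0.82. The difference was 0.04 once control replicate 3 was left out, and -0.36 by the biweight fold.

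*EXPB6* had nearly the same profile, with 9.27, 9.32 and 6.84 in the controls and 9.81, 9.02 and 8.66 in overexpressing rice. Its log2 difference was 0.69 (standard error 0.63), but -0.13 when control replicate 3 was left out and -0.20 by the biweight fold. In both genes the low control lay 2.39 or more below the next control, a larger step than any between the other 5 arrays.

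*EXPB4* had 8.06, 7.82 and 6.63 in the controls and 8.58, 7.91 and 8.18 in overexpressing rice, and a log2 difference of 0.72 (standard error 0.36), or 0.28 without control replicate 3. *EXPB2*, which has been linked to root growth, had 5.81, 5.99 and 4.68 against 5.72, 6.15 and 6.04, and a difference of 0.47 (standard error 0.33), or 0.07 without that control. The 4 neighbours thus shared the low control replicate 3, but not the order of the overexpressing arrays, since replicate 1 was the highest for *EXPB3*, *EXPB4* and *EXPB6* and the lowest of the 3 for *EXPB2*.

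*EXPB9* lies on the same chromosome apart from the 4 and did not share the pattern. It had 6.20, 6.37 and 5.96 in the controls and 5.76, 6.11 and 5.75 in overexpressing rice, a log2 difference of -0.30 (standard error 0.17). Neighbours did not always share a profile. *EXPB7* and *EXPB8* on chromosome 3 have 1 annotated gene between them. *EXPB7* had 7.19, 7.48 and 6.18 in the controls and 7.88, 7.01 and 7.71 in overexpressing rice. *EXPB8*, with 5.17, 5.10 and 5.01 against 5.08, 5.33 and 5.03, varied by only 0.31 over the 6 arrays.

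**Figure D4:**
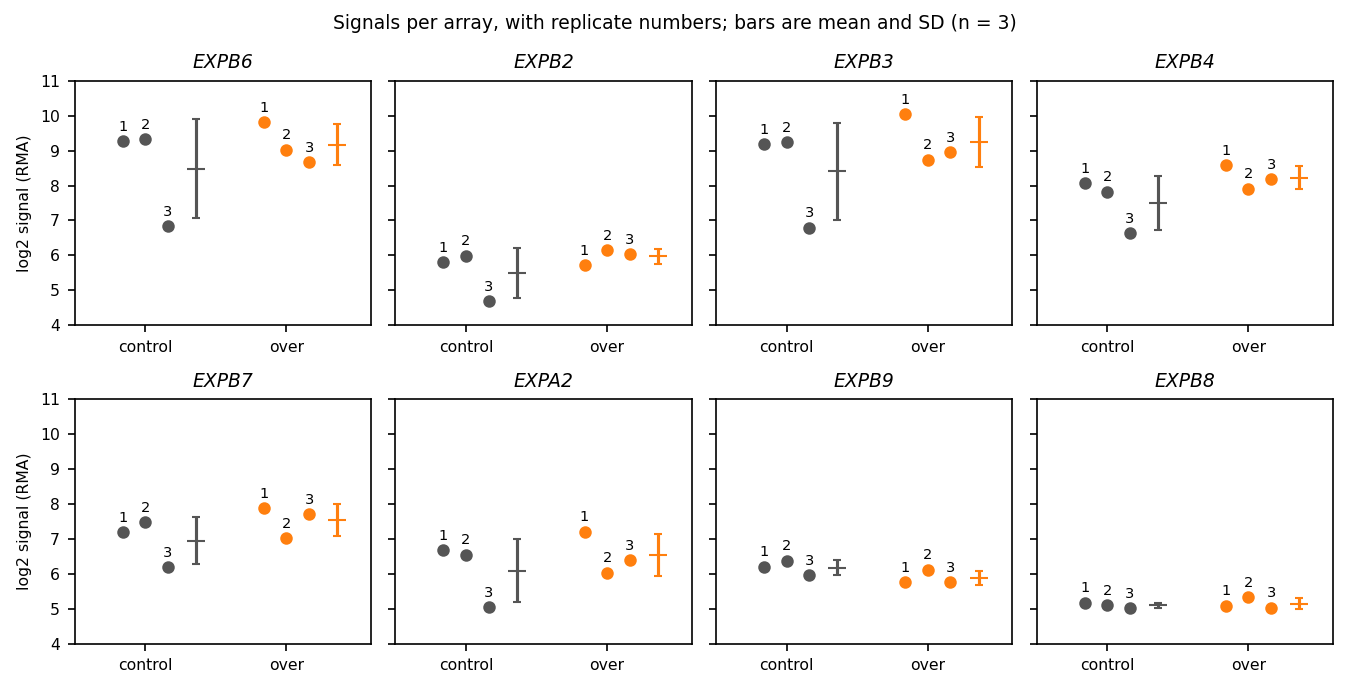
Log2 signal (vertical axis) of 8 expansin genes on each array, controls in grey and overexpressing rice in orange, with the replicate number above each point and the mean and SD (n = 3) beside it. Control replicate 3 lies below every other array for *EXPB6*, *EXPB2*, *EXPB3*, *EXPB4*, *EXPB7* and *EXPA2*, and *EXPB9* and *EXPB8* have no such gap.

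Among the alpha-expansins the same swing was seen in *EXPA2*, also listed as RiExB and RiExC. It had 6.68, 6.54 and 5.04 in the controls and 7.20, 6.03 and 6.39 in overexpressing rice. Its log2 difference of 0.45 (standard error 0.46) was -0.07 when that control was left out and -0.14 by the biweight fold. *EXPA4*, known from submerged coleoptiles and internodes, had 8.61, 8.35 and 7.42 against 8.53, 8.14 and 8.74, and a difference of 0.34 (standard error 0.31), or -0.01 without that control.

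*EXPA33*, next to *EXPA3* on chromosome 5, had the highest difference among the alpha-expansins. Its signals were 4.70, 5.21 and 3.92 in the controls and 5.22, 5.81 and 5.01 in overexpressing rice, so that the genotypes overlapped through control replicate 2. The log2 difference was 0.74 (standard error 0.33), with a 95% interval from -0.03 to 1.51 and an adjusted p of 0.73 by limma. Without control replicate 2 it was 1.04 and passed the fold and the unadjusted p, the one member to do so with any array left out, while without control replicate 3 it was 0.39. Its neighbour *EXPA3* had 8.06, 8.07 and 7.57 against 7.58, 8.11 and 7.35 and a difference of -0.22 (standard error 0.23).

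Another profile, with overexpressing replicate 1 lowest, was found in *EXPA6*, *EXPA11* and *EXPA12*. They were among the 12 members lowest on that array, or 31.6% against 25.9% of all clusters. *EXPA6* had 7.04, 7.04 and 6.74 in the controls and 6.24, 6.82 and 6.53 in overexpressing rice, a log2 difference of -0.41 (standard error 0.18). *EXPA11* had 5.73, 5.78 and 5.34 against 4.85, 5.72 and 5.05, a difference of -0.41 (standard error 0.24). In both the genotypes overlapped through overexpressing replicate 2, and without overexpressing replicate 1 the differences were -0.26 and -0.23.

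In *EXPA10* and *EXPB18* controls 1 and 2 and the first overexpressing replicate lay above the other 3 arrays. The same split held in *EXPB3*, *EXPB6*, *EXPA2* and *EXLA3*. In *EXPB3*, *EXPB6* and *EXPA2* the first overexpressing replicate was the highest array, while in *EXPA10* and *EXPB18* it lay below controls 1 and 2. *EXPA10*, which aluminium induces in rice roots and which was named after its values were seen, had 6.39, 6.39 and 5.50 in the controls and 6.11, 5.52 and 5.73 in overexpressing rice. *EXPB18* had 6.87, 6.96 and 6.06 against 6.58, 6.13 and 6.34. Their log2 differences were -0.31 (standard error 0.27) and -0.28 (standard error 0.25), and that of *EXPB18* was -0.57 without control replicate 3.

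Of the remaining alpha-expansins, *EXPA16* and *EXPA21* were the steadiest within overexpressing rice, with SDs of 0.01 and 0.03 over the 3 arrays, and *EXPA21* had a log2 difference of 0.05 (standard error 0.13). The largest interval limits among the alpha-expansins other than *EXPA2*, *EXPA4* and *EXPA33* stayed inside a fold of 2. *EXPA8*, known from rice root growth, had 5.36, 5.83 and 5.12 in the controls and 5.10, 5.54 and 5.04 in overexpressing rice, a difference of -0.20 (standard error 0.22). Among the beta-expansins *EXPB10* and *EXPB14* had differences of 0.10 and -0.23, with standard errors of 0.21 and 0.20.

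The expansin-like genes were at or below 0. *EXLA2* had 6.79, 6.76 and 7.15 in the controls and 6.11, 6.51 and 6.74 in overexpressing rice, a log2 difference of -0.45 (standard error 0.20, adjusted p = 0.73 by limma). Its control replicate 3 was the highest of the 6 arrays. *EXLA3* had 5.71, 6.09 and 5.24 against 5.75, 5.27 and 5.46 and a difference of -0.18 (standard error 0.23). *EXLB1* had 4.46, 4.70 and 4.25 against 4.17, 4.80 and 4.43, which gave means of 4.47 in both genotypes and a 95% interval from -0.46 to 0.46.

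Within the classes members did not move as one. The median Pearson correlation between members over the 6 arrays was 0.27 for the 231 pairs of *EXPA* genes, 0.17 for the 66 pairs of *EXPB* genes and 0.14 for the 264 pairs of one *EXPA* and one *EXPB* gene. All pairs share the same 6 arrays. The range within *EXPB*, from -0.71 to 0.98, was nearly as wide as that within *EXPA*, from -0.87 to 0.98. The median SD between controls was 0.40 for *EXPB* and 0.26 for *EXPA*, against 0.20 for all clusters, while in overexpressing rice it was 0.26 and 0.29 against 0.19.

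Markers of dividing tissue were low on control replicate 3, while those of shoot and root mostly were not. Of 23 listed markers of dividing tissue 11 were measured. For 10 of them control replicate 3 was the lowest array, where 18.7% of all clusters had it lowest. In the same 10 it lay more than 1 log2 unit below both other controls, against 2.26% of all clusters. The mean log2 signal of the 11 markers ran from 4.24 to 5.94 in the controls and from 4.88 to 5.57 in overexpressing rice. The lowest signal of any of the 11 was 3.38. Their median level was 0.63, 0.67 and -1.01 across the controls, compared with 0.26, -0.38 and -0.27 across the overexpressing arrays. By limma 0 of the 11 passed the unadjusted p between genotypes, and the median of their log2 differences was -0.24. They shared the low control with *EXPB3*, *EXPB6*, *EXPA2*, *EXPA10* and *EXLA3*. In these genes, as in the markers, controls 1 and 2 and overexpressing replicate 1 were the upper arrays. With *EXPB18* the markers shared the order of all 6 arrays. Their part in these profiles was not tested. The mean of 7 measured shoot markers (18 listed) ran from 8.59 to 8.75 in the controls and from 8.84 to 9.03 in overexpressing rice, and that of 6 root markers (17 listed) from 5.90 to 6.27 and from 6.15 to 6.32, so markers of both organs were measured in all samples. Control replicate 3 lay more than 1 log2 unit below both other controls for 2 of the 7 shoot markers and 1 of the 6 root markers. Over all clusters the share was 2.26%. Those markers were *RBCS*, with 12.76, 12.72 and 11.66 in the controls, *PORA*, with 8.53, 8.60 and 7.21, and *CASP1*, with 5.36, 5.38 and 4.19. In *CAB1R*, *RCA*, *GLK1*, *GLK2* and *NAR2.1* control replicate 3 was the highest control instead. The median level in control replicate 3 was 0.06 for the shoot markers and -0.06 for the root markers. At the unadjusted p by limma the shoot marker *RCA* was higher in overexpressing rice by 0.68 on the log2 scale and the root marker *CASP1* by 0.79, and the root marker *WOX11* had a difference of -0.30. Of 20 root hair markers only *SRH2* was measured, with signals from 8.23 to 8.88.

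Of 25 other listed genes of wall growth 19 were measured. With a fold over 2 and the unadjusted p 0 passed, where 0.335% of all clusters were higher and 0.172% lower. At the unadjusted p alone 1 was higher and 1 lower, where 3.27% and 3.62% of all clusters were, so these counts were near the background. *GLU2*, an endoglucanase gene, had a log2 difference of 0.49 (standard error 0.19), and *GLU1*, whose membrane-bound endoglucanase is needed for internode elongation, had -0.49 (standard error 0.14). The cellulose synthase gene *CESA8* had 9.55, 9.44 and 8.39 in the controls and 10.37, 9.50 and 9.57 in overexpressing rice, with the same lowest and highest arrays as *EXPB3*. *CSLF6*, which makes mixed-linkage glucan, had 8.89, 8.77 and 7.81 against 9.62, 8.80 and 8.92. The 7 measured *CESA* genes had a median level of -0.52 in control replicate 3 and 0.56 in overexpressing replicate 1. The single measured xyloglucan endotransglucosylase gene, *XTH8*, had 7.85 in control replicate 3 and 8.21 to 8.88 elsewhere. Of the 19 genes, 11 were lowest on control replicate 3, where 18.7% of all clusters were. In 2 of the 19 it lay more than 1 log2 unit below both other controls, against 2.26% of all clusters. In *CESA9*, *GLU1* and *PMEI28* it was the highest control. The wall genes with signals shown here were picked after their values were seen.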

How the data were processed

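RNA of whole seedlings was hybridised to Affymetrix Rice (Cn) Gene 1.0 ST arrays. The authors made log2 signals with RMA in Affymetrix Expression Console (background correction, normalization between arrays and summary per transcript cluster) and deposited them, and compared genotypes in Transcriptome Analysis Console (the sources used here give no versions). The deposited log2 signals of 41770 clusters were used as they are, so earlier steps could not be repeated. The number of arrays limits the precision. The p-values set the genotype difference against the spread between these 3 replicates of each genotype, which limma moderates across all clusters.

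Overexpressing rice was compared with the control in limma 3.58.1 in R 4.3.3 (lmFit, eBayes, Benjamini-Hochberg over all clusters, no block or covariate), and checked on simulated data. Genes were named through NCBI gene identifiers (assembly ASM3414082v1, *japonica*) in the platform table, which pairs 15299 clusters with 1 gene. Since the array is of *indica* rice, the assembly served only for names, chromosomes and neighbours. No sequences were used here, so the planned count of a promoter motif was not made.

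The members, lists and rules were chosen with earlier results of these data known. Named were members at an unadjusted p under 0.05, the 3 highest and 3 lowest differences of *EXPA* and of *EXPB*, all *EXLA* and *EXLB* genes, and the 5 largest SDs in each genotype, 18 genes in all. Other members named were chosen after their values were seen. The alternatives were the ANOVA of the methods with plain and biweight folds, a variance trend with intensity, leaving out the dimmest 25% of clusters, array weights, cyclic loess, quantile normalization applied again, the replicate number as a block, members without the dimmest, and each array left out in turn. Figures were drawn with matplotlib 3.10.9.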

Additional observations from a re-analysis of the deposited data

How the results depend on the processing

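At an adjusted p under 0.05 no member passed under any alternative run, and 1 member, *EXPA33*, passed the fold and the unadjusted p with an array left out (0 to 1 higher, 0 lower). Members higher at the unadjusted p numbered 0, but 2 with quantile normalization repeated (5.26% against 3.41% of all clusters), 2 with cyclic loess (against 3.80%) and 3 with the replicate block (*EXPA33*, *EXPB4* and *EXPB16*, 7.89% against 4.35%). With an array left out 0 to 2 members were higher, where 2.35% to 5.87% of all clusters were. Lower ones numbered 3, but 6 with array weights (15.8% against 5.61%) and 0 to 7 with an array left out, 7 without control replicate 3 (18.4% against 5.93%) and 0 without control replicate 1 or 2 (against 2.77% and 2.1%). Members wholly below the controls numbered 6, but 3 with quantile normalization or cyclic loess and 6 to 13 with an array left out, where 11.1% to 16.7% of all clusters did so. Members wholly above numbered 1, or 1 to 4, against 8.47% to 13.8%. The *EXPA* median of -0.20 ranged from -0.23 to -0.04 with an array left out, the *EXLA* median of -0.42 from -0.50 to -0.31. With the biweight fold the medians were -0.11 for *EXPB*, -0.30 for *EXLA* and 0.01 for the class difference. Without the dimmest clusters the *EXPB* median was 0.41. Of 18 named genes 12 kept their direction under every alternative. With the biweight fold *EXPA2*, *EXPB3* and *EXPB6* had -0.14, -0.36 and -0.20. With an array left out *EXPA2* ranged from -0.07 to 0.75, *EXPA4* from -0.01 to 0.58 and *EXPB6* from -0.13 to 1.11, each lowest without control replicate 3, and *EXLA3* ranged from -0.40 to 0.02, highest without control replicate 2. *EXLB1*, near 0, had 0.04 with quantile normalization, 0.06 with cyclic loess, 0.01 with array weights and -0.17 to 0.15 with an array left out. The causes were not tested. Whether replicate numbers pair the arrays could not be decided. Deviations of same-numbered arrays from their genotype means correlated at 0.345, -0.11 and 0.206 over clusters, and those of differently numbered arrays at -0.367 to 0.256. The 3 deviations within a genotype sum to 0, so these correlations constrain each other. Averaging over the clusters of a gene was not run, as each member has 1, nor was leaving out members that share signals, as none did, and correlations were not computed on fewer than 6 arrays.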
